A study of Mus musculus with 2 samples.

Results

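The liver endothelium sends secreted and membrane-bound factors to its neighbours, and 8 genes of this kind were followed here. They were Wnt2, Wnt9b, Rspo3, Bmp2, Bmp6, Hgf, Dll4 and Angpt2, taken as a set list and all found by symbol among the 31053 mouse genes of the deposited matrix. Their levels were read in endothelial barcodes, defined as barcodes with a UMI (a counted RNA molecule) of at least 4 of the 8 genes Clec4g, Ptprb, Kdr, Stab2, Fcgr2b, Gpihbp1, Aqp1 and Egfl7. This gate took 968 of 13151 barcodes, and 836 of the 10212 barcodes that passed the quality filter. Of these 836, 753 carried the hashtag of 1 mouse, 46 carried no called hashtag and 37 were called as hashtag doublets.

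The study injected transposon plasmids into the tail vein of young adult female C57BL/6 mice, in a volume large enough to drive DNA into a fraction of hepatocytes, and took the livers on day 6. The transposon carried mVenus, a yellow fluorescent protein, with NRAS under the CAGGS promoter, which is active in many cell types. Oncogenic NRAS(G12V) went into 2 mice. The single control animal was given NRAS(G12V/D38A), a form with an added change that is not oncogenic, so all 3 mice carried a transgene and no uninjected mouse was present. Cells were tagged with 1 hashtag antibody per mouse, sorted as live mVenus-positive hepatocytes, pooled and sequenced with a 3′ single-cell assay. The endothelial barcodes are therefore cells other than those the sort was meant to keep. The gate itself sets the presence of its 8 genes, so the label was read from endothelial genes outside it: the Tie receptor gene Tek stood at 105, 123 and 309.5 CPM (counts per 1000000 UMIs) in the endothelial sums of the 3 mice and at no more than 0.447 CPM in their hepatocyte sums, and Tie1 stood at 68.1, 91.5 and 191 CPM against no more than 2.40 CPM.

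The sinusoidal endothelium lines the capillary bed of the liver lobule, between portal vessels and the central vein. Wnt2, Wnt9b and Rspo3 are the ligands and the amplifier of the canonical Wnt pathway, which is known to set the central programme of hepatocytes. Bmp2 and Bmp6 are bone morphogenetic proteins through which the endothelium controls the iron hormone hepcidin in hepatocytes. Hgf is a growth factor for hepatocytes, Dll4 is a ligand of Notch receptors on adjacent cells, and Angpt2 is a context-dependent ligand of the Tie2 receptor. Stellate cells are another textbook source of Hgf.

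Mice are named here by their hashtag, because the deposited table and the study's methods pair hashtags with mice differently. The deposited table gives hashtag 1 to the control mouse and hashtags 2 and 3 to the G12V mice, while the methods give hashtag 3 to the control mouse. The tags, read as DNA bases that mark each mouse, were the following.
Hashtag 1: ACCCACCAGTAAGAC
Hashtag 2: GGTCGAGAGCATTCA
Hashtag 3: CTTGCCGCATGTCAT

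The 753 endothelial barcodes were very unevenly spread, with 49 from the mouse of hashtag 1, 66 from that of hashtag 2 and 638 (84.7%) from that of hashtag 3. The 3 sums per mouse held 455473, 699581 and 2811280 UMIs, and the barcodes had medians of 5851, 3678 and 3553 UMIs. In the same mice 233, 1180 and 42 barcodes passed the hepatocyte gate and no other, with medians of 38310, 44036 and 6444 UMIs. A further 1748 hepatocyte barcodes carried no called hashtag and 51 were called as hashtag doublets. These entered no comparison. Some endothelial barcodes also carried RNA of other cells: 139 of 836 passed another gate as well, 102 of them the hepatocyte gate. The 8 hepatocyte gate genes summed to 907, 1201 and 508 CPM in the endothelial sums of hashtags 1, 2 and 3, and to 391, 333 and 282 CPM when only barcodes passing no other gate were summed. Macrophage gate genes summed to 13.2, 356 and 85.7 CPM. Whether these are 2 cells in 1 droplet or free RNA cannot be told apart here. Levels are therefore given both for all endothelial barcodes and for those passing no other gate, of which the 3 mice had 26, 51 and 567.

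The promoter stretches of the 2 Wnt ligands and of Dll4 are shown because the central and portal endothelial classes described further on are read for these genes among others. They are the RefSeq bases (GRCm38.p6) that precede the gene start, written 5′ to 3′ on the coding strand. Capitals mark GGAAG or its reverse complement CTTCC, a core of ETS-family sites, and GATAA or its reverse complement TTATC, a core of GATA-family sites. Wnt2 lies on chromosome 6 (chr6:18030586-18030695, minus strand), Wnt9b on chromosome 11 (chr11:103749822-103750071, minus strand) and Dll4 on chromosome 2 (chr2:119325534-119325783, plus strand).
Wnt2: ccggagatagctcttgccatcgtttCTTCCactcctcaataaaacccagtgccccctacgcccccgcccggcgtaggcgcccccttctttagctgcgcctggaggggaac
Wnt9b: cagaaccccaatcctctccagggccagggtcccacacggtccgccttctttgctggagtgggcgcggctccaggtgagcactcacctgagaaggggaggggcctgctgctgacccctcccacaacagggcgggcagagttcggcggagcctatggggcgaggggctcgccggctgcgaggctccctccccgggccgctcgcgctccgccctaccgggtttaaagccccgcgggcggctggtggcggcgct
Dll4: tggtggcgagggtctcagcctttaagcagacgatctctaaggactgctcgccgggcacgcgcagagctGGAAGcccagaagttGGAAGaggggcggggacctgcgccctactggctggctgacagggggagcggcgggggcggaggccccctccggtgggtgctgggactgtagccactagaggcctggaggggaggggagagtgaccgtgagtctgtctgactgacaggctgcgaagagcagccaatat
For Wnt2 only the 110 bases before the outermost annotated start are shown. The whole 250-base RefSeq window of Wnt2 held GATAA letters 2 times and GGAAG letters 1 time, that of Dll4 held 0 and 2, and that of Wnt9b held 0 and 0. Over 32817 promoter windows of this length, 22.6% held GATAA and 64.1% held GGAAG on either strand, so matches of this kind are common. RefSeq windows were also held for Bmp6 and Hgf.

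Between endothelial and hepatocyte barcodes, the Wnt ligands and Rspo3 were found almost wholly in the endothelial ones. Wnt2 stood at 90.0, 90.0 and 573 CPM in the endothelial sums of hashtags 1, 2 and 3, a mean of 251 ± 279 (SD, n = 3 mice). In hepatocyte sums of the same mice it stood at 0.112, 0.229 and 4.79 CPM, from 15 UMIs in 1455 barcodes. The lowest endothelial sum was thus above the highest hepatocyte sum, and Wnt2 was higher in endothelial barcodes by 7.99 on the log2 scale (SE 0.443, adjusted p = 1.23e-10, edgeR quasi-likelihood test with the mouse as a block). In that comparison 20.9% of 8129 genes tested were called higher in endothelial barcodes, so a call of this kind is not rare. The median difference of all genes was 0.01 there, with 1698 genes higher and 915 lower, and 0.43 with 2475 higher and 340 lower when scaled by library size. No member reached the low-count filter, 22.9 CPM in 2 or more sums, in hepatocyte sums. The tested members passed it through other sums, mostly endothelial ones. Their calls thus lean to higher values by the filter alone, also in the comparisons with immune types below.

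Rspo3 had 248, 71.5 and 412 CPM in endothelial sums, a mean of 244 ± 171 (SD, n = 3). Hepatocyte sums held 1.23, 0.650 and 11.98 CPM, and the difference was 6.42 on the log2 scale (SE 0.456, adjusted p = 4.59e-10, edgeR). The mouse of hashtag 3 had both the highest endothelial and the highest hepatocyte level of Wnt2 and Rspo3. Its hepatocyte barcodes also held more of the 8 endothelial gate genes, 101 CPM against 13.4 and 12.7 CPM in the other mice, and their part in these hepatocyte values was not tested. Wnt9b was much scarcer in UMIs. It stood at 21.96, 4.29 and 41.97 CPM in endothelial sums, from 10, 3 and 118 UMIs, and 1 UMI was found in all 1455 hepatocyte barcodes. The ratio of the endothelial mean to the hepatocyte level was 1404, with a counting interval of 252 to 55420, and without the mouse of hashtag 2 only a bound of at least 99.8-fold was left. Wnt9b did not pass the filter on low counts and had no call in the fit with that filter. In a fit without the filter it was higher in endothelial barcodes by 7.01 on the log2 scale (adjusted p = 1.65e-13, edgeR).

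Bmp2 was detected in more endothelial barcodes than the other 7 genes. It stood at 277, 409 and 1040 CPM in the 3 mice, a mean of 575 ± 408 (SD, n = 3), and at 5.92, 3.94 and 4.79 CPM in hepatocyte sums. The sums did not overlap, and the difference was 5.97 on the log2 scale (SE 0.442, adjusted p = 2.80e-09, edgeR). Bmp6 stood at 15.4, 28.6 and 119 CPM in endothelial and at 1.45, 1.41 and 0 CPM in hepatocyte sums. It was higher in endothelial barcodes by 3.92 on the log2 scale (SE 0.503, adjusted p = 1.00e-05, edgeR), a call that DESeq2 did not give (adjusted p = 0.448). Bmp2 and Bmp6 both had a low level in hepatocytes that rested on many UMIs, 261 and 87, in contrast to Hgf and Dll4.

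Hgf and Dll4 had few UMIs in endothelial barcodes and almost none in hepatocytes. Hgf stood at 39.5, 41.5 and 73.3 CPM in endothelial sums, a mean of 51.4 ± 18.96 (SD, n = 3), with 3 UMIs in all hepatocyte barcodes, a ratio of 1058 with a counting interval of 362 to 5126. That ratio was 264 without the mouse of hashtag 2, which gave most of the hepatocyte barcodes. Dll4 stood at 19.8, 27.2 and 27.4 CPM, a mean of 24.8 ± 4.34 (SD, n = 3). No Dll4 UMI was found in 1455 hepatocyte barcodes, so Dll4 was at least 509.6-fold higher in endothelial barcodes, with 3 counts over all hepatocyte sums taken as the floor (at least 73.6-fold without the mouse of hashtag 2). Both were called higher by edgeR (adjusted p = 5.41e-09 for Hgf and 1.81e-07 for Dll4), while DESeq2 did not call Dll4 (adjusted p = 0.135). The 3 endothelial sums of Dll4 lay close together, with overlapping Poisson intervals.

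Angpt2 did not follow the other 7 genes. It stood at 13.2, 11.4 and 9.96 CPM in endothelial sums and at 12.4, 13.6 and 11.98 CPM in hepatocyte sums, so the groups overlapped. The ratio of the endothelial mean to the pooled hepatocyte level was 0.859, with a counting interval of 0.803 to 0.920 that takes the endothelial mean as fixed. In endothelial barcodes passing no other gate Angpt2 stood at 26.0, 16.4 and 10.8 CPM, which turned the ratio to 1.32, from 29 UMIs. The direction of the Angpt2 difference thus depends on which barcodes are summed. The hepatocyte level rested on 828 UMIs in 439 of 1455 barcodes. Without the low-count filter, which Angpt2 did not pass, the difference was -0.54 on the log2 scale (SE 0.487, adjusted p = 0.588, edgeR). In contrast, conventional dendritic barcodes held 3 Angpt2 UMIs in all (0.784 CPM, Poisson interval 0.162 to 2.29) and mature dendritic barcodes held 0, which allows up to 1.53 CPM. Pooled hepatocyte barcodes stood at 13.4 CPM. The part of free RNA in these values was not tested.

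**Figure D1:**
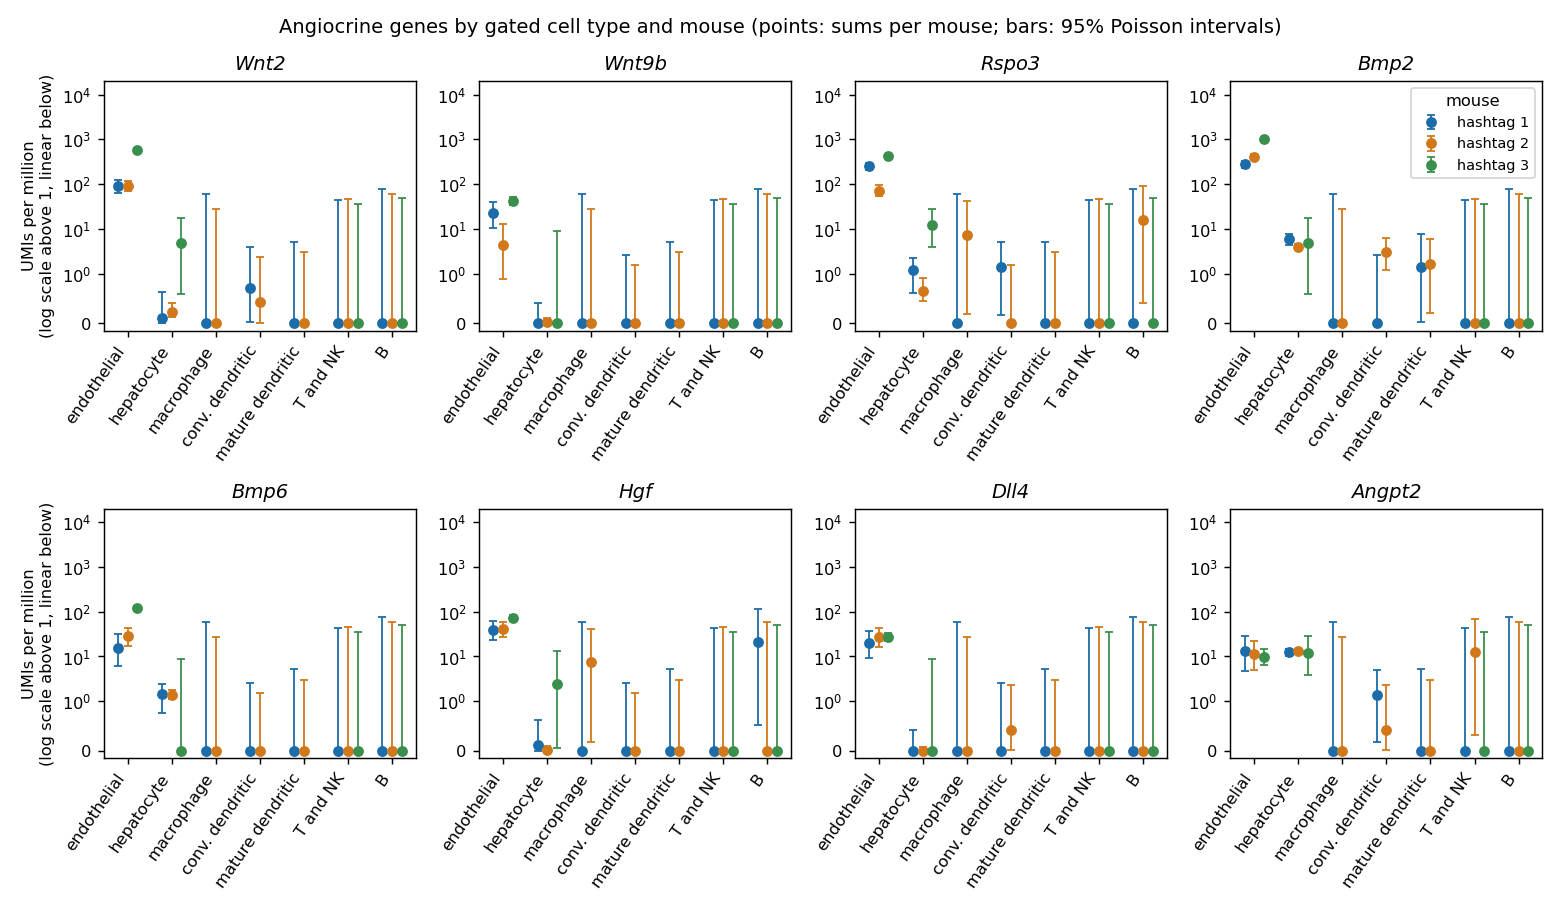
CPM, UMIs per 1000000 (vertical axis, log scale above 1 and linear below) of the 8 genes in 7 gated types (horizontal axis), 1 point per mouse with at least 10 barcodes and its 95% Poisson interval. Endothelial points stand above the points of all other types for 7 genes, whereas the Angpt2 points of hepatocytes (11.98 to 13.6) lie among the endothelial ones (9.96 to 13.2), and the long bars of macrophage, T and NK and B barcodes show how little depth those types had. How many of all genes stand apart in this way was not counted.

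Shares of barcodes with a UMI were read with the depth held equal. Among 636 endothelial barcodes thinned to 2000 UMIs (117 shallower ones were left out), 77.4% had a Bmp2 UMI, 56.3% Wnt2, 20.1% Bmp6, 13.4% Hgf, 12.9% Rspo3, 7.39% Wnt9b, 5.50% Dll4 and 2.04% Angpt2. The assay counts 3′ ends, so these shares say how often each gene was detected and give no order of amounts between genes. In 1450 hepatocyte barcodes thinned alike the shares were 0.621% for Bmp2, 0.069% for Wnt2 and 2.21% for Angpt2 (interval 1.51% to 3.10%). Unthinned, a UMI of Angpt2 was found in 30.2% of hepatocyte barcodes (median 42606 UMIs) and in 4.91% of endothelial barcodes (median 3643 UMIs), which follows their difference in depth, since the thinned shares were 2.21% and 2.04%.

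Against the immune types the endothelial levels were again the higher ones, as far as depth allowed. No Wnt2 UMI was found in 40 macrophage, 241 mature dendritic, 69 T and NK or 76 B barcodes, so Wnt2 was at least 19.8-fold, 164-fold, 22.4-fold and 15.6-fold higher in endothelial barcodes, with the floor of 3 counts taken over each type. These bounds rest on an endothelial mean that the mouse of hashtag 3 raised, and without it they were 5.92-fold, 57.98-fold, 4.95-fold and 3.35-fold. Without the mouse of hashtag 2 they were 11.2-fold for macrophage and 82.0-fold for mature dendritic barcodes. Conventional dendritic barcodes held 2 Wnt2 UMIs, a ratio of 480 (interval 133 to 3966), which was 170 without the mouse of hashtag 3 and 798 without that of hashtag 1. Bmp2 was at least 45.3-fold above macrophages, 51.4-fold above T and NK and 35.7-fold above B barcodes, or 22.6-fold, 18.8-fold and 12.7-fold without the mouse of hashtag 3 and 22.3-fold above macrophages without that of hashtag 2. The tests against macrophage and both dendritic types rest on the sums of 2 mice, hashtags 1 and 2, since the mouse of hashtag 3 had under 10 barcodes of each. Bmp2 was called higher in endothelial barcodes in all 6 comparisons, with adjusted p from 2.80e-09 against hepatocytes to 6.37e-05 against macrophages (edgeR). Wnt2 and Rspo3 were called higher in all 6 as well, with the weakest calls against macrophages (adjusted p = 0.00177 and 0.00448, edgeR). In these comparisons 6.84% (macrophage), 23.5% (conventional dendritic), 23.7% (mature dendritic), 15.3% (T and NK) and 11.5% (B) of 8129 genes were called higher in endothelial barcodes. With library-size scaling the split moved from 1908 higher and 1405 lower to 3159 and 822 against conventional dendritic barcodes, and from 1925 and 1428 to 3660 and 792 against mature dendritic barcodes, with medians of all genes of 0.76 and 1.04 in place of 0.16 and 0.28. Leaving out the mouse of hashtag 2 ended the Wnt2 call against macrophages (adjusted p = 0.172), and leaving out that of hashtag 1 ended the Rspo3 call (adjusted p = 0.132). Each of these fits has 1 macrophage sum, which is assumed to vary like the other types.

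For the scarcer genes the depth of the small types set the limit. Hgf (adjusted p = 0.138), Dll4 (0.102) and Bmp6 (0.106) were not called against macrophages, and Hgf (0.0604) and Dll4 (0.0786) were not called against B barcodes (edgeR). The macrophage sums held so few UMIs that 0 counts still allow 12.7 CPM, so the bound for Dll4 was at least 1.95-fold, and without the mouse of hashtag 2 its endothelial mean was below the floor. Against conventional dendritic barcodes, which were deeper, Hgf was at least 65.6-fold and Bmp6 at least 69.3-fold higher. Without the mouse of hashtag 2 these bounds were 27.5-fold and 32.8-fold, and without that of hashtag 3 the Bmp6 bound was 27.7-fold. Dll4 had 1 UMI there, a ratio of 94.7 (interval 17.0 to 3742), which became a bound of at least 11.5-fold without the mouse of hashtag 2. Fewer than 10 plasmacytoid dendritic barcodes were called in each mouse, so that type had no test. Its 16 barcodes held 1 Dll4 UMI and none of the other 7 genes.

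Stellate-gated barcodes were the only type with levels of Rspo3 and Hgf above the endothelial ones, on very few barcodes. All 5 called stellate barcodes came from the mouse of hashtag 3. They held 27 Rspo3 UMIs in 4 barcodes (939 CPM, Poisson interval 619 to 1366) and 10 Hgf UMIs in 3 barcodes (348 CPM, interval 167 to 639). The endothelial sum of that mouse had 412 CPM of Rspo3 and 73.3 CPM of Hgf. In 7 further stellate barcodes without a hashtag call the values were 181 CPM and 60.4 CPM, from 6 and 2 UMIs. With 1 mouse there is no test.

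The 3 mice differed in endothelial levels, and leaving out barcodes that pass another gate changed that difference. As a ratio, the highest mouse came closer to the lowest for Wnt2, Wnt9b, Bmp2 and Bmp6, and moved further from it for Rspo3, Hgf, Dll4 and Angpt2. Bmp2 ran from 277 to 1040 CPM over all endothelial barcodes, but stood at 608, 1191 and 1194 CPM in barcodes passing no other gate. The mice of hashtags 2 and 3 were then alike. Wnt2 stood at 208, 290 and 686 CPM in those barcodes, so the mouse of hashtag 3 remained the highest. Bmp6 stood at 43.4, 92.9 and 144 CPM and Hgf at 34.7, 126 and 83.8 CPM. Rspo3 stood at 790, 76.5 and 526 CPM and Wnt9b at 86.8, 16.4 and 51.8 CPM, so both were highest in the mouse of hashtag 1 once those barcodes were left out. Dll4 stood at 34.7, 71.0 and 30.6 CPM and Angpt2 at 26.0, 16.4 and 10.8 CPM, the latter from 3, 3 and 23 UMIs.

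**Figure D2:**
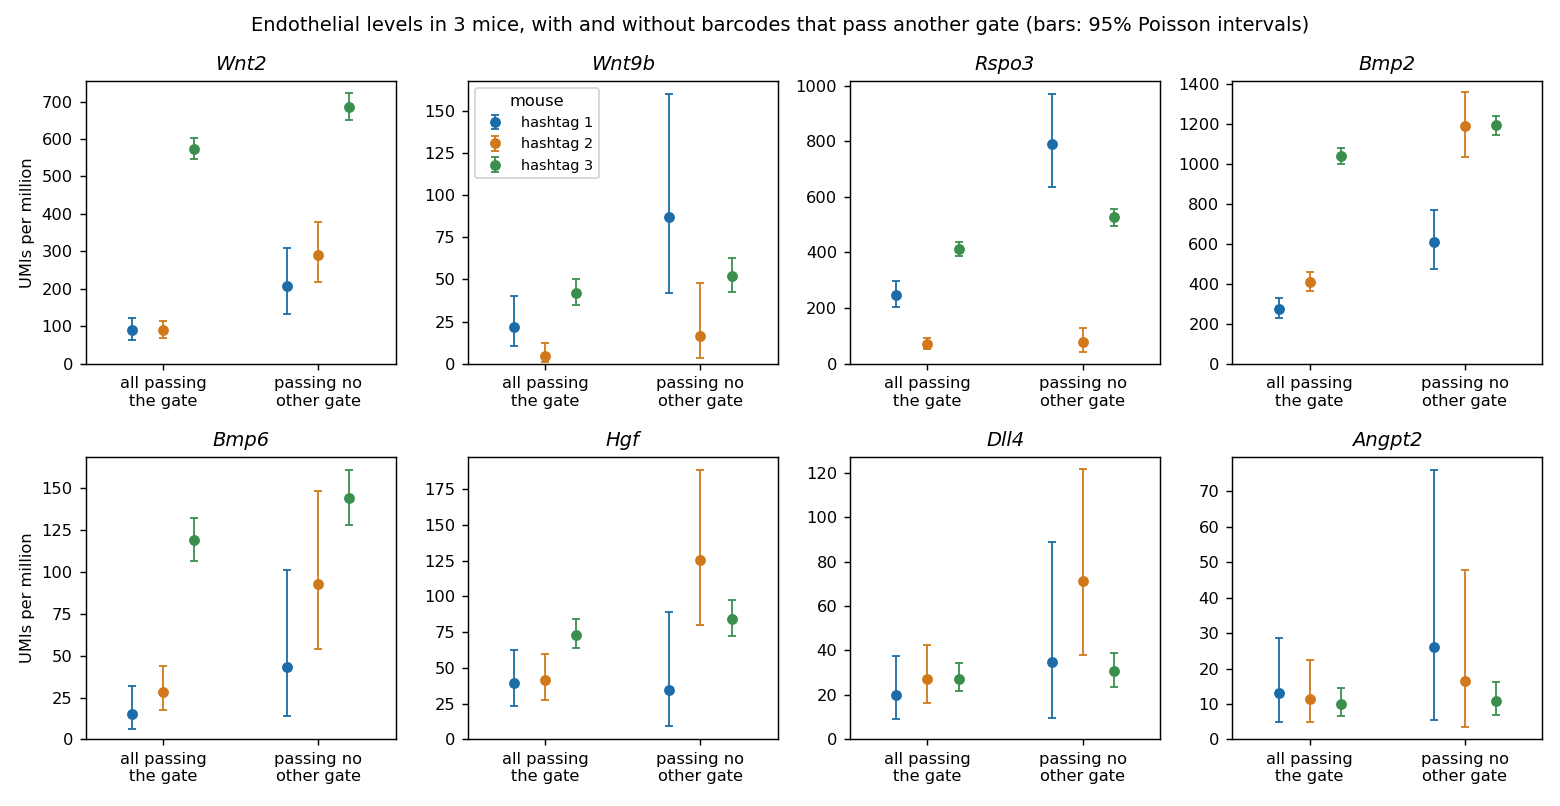
Endothelial levels in CPM, UMIs per 1000000 (vertical axis, from 0) of each gene in the 3 mice, for all barcodes passing the endothelial gate and for those passing no other gate (horizontal axis), with 95% Poisson intervals that cover counting error only. For Bmp2 the spread of 277 to 1040 becomes 608 to 1194, and Rspo3 moves from highest in hashtag 3 (412) to highest in hashtag 1 (790).

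Whether oncogenic NRAS in hepatocytes goes with other endothelial levels is the comparison of the G12V mice with the D38A mouse, and with 1 control mouse it has no test. In the deposited pairing no member was at least 2-fold higher or lower in both G12V mice, on values of log2(CPM + 1). Bmp6 came nearest, with differences of 0.85 and 2.88 on that scale. In the pairing of the methods 3 of 8 members, Wnt2 (-2.66 and -2.66), Bmp2 (-1.91 and -1.35) and Bmp6 (-2.88 and -2.02), were at least 2-fold lower in both G12V mice. The sign for these genes thus turns on which pairing holds. How many of all genes meet the same rule was not counted, so these counts show nothing particular to the members. In barcodes passing no other gate and the deposited pairing, Bmp6 (1.08 and 1.71) and Hgf (1.83 and 1.25) passed 2-fold. The number of endothelial barcodes (49 against 66 and 638) and their load of hepatocyte RNA differed between the mice as well and cannot be told apart from the group.

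Endothelial barcodes were then split into a central class, with more detected genes of Kit, Thbd, Cdh13, Fabp4 and Ptgs1, and a portal class, with more of Efnb2, Ltbp4, Msr1, Ntn4 and Adam23, after thinning to 2000 UMIs. The central class had 14, 25 and 335 barcodes in the mice of hashtags 1, 2 and 3 and the portal class 14, 12 and 106. None of the 8 members was used for the split. Rspo3 stood at 979, 219 and 637 CPM in the central class and at 0, 0 and 66.5 CPM in the portal class. It was higher in the central class in 3 of 3 mice, by 4.11 on the log2 scale (SE 0.538, adjusted p = 0.00285, edgeR), in a comparison in which 0.101% of 2972 genes were called higher. Rspo3 passed the low-count filter through its central sums and would not have passed through its portal sums. The call thus leans to higher values by the filter alone. The call was lost with library-size scaling (adjusted p = 0.0569), with DESeq2 (0.481) and without the mouse block (0.344), with a range of 4.78e-24 to 0.481 over 14 alternatives.

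Wnt2 stood at 251, 174 and 750 CPM in the central class and at 50.7, 125 and 275 CPM in the portal class. It was higher in 3 of 3 mice, but the difference of 1.48 on the log2 scale (SE 0.335) did not pass (adjusted p = 0.197, edgeR, range 1.42e-07 to 0.9996 over 15 alternatives). Wnt9b stood at 86.6, 4.47 and 60.2 CPM in the central class and at 0, 20.8 and 6.996 CPM in the portal class. The mouse of hashtag 2, with 1 UMI in each class, went the other way. Wnt9b did not pass the low-count filter. Without that filter it was called, by 3.0 on the log2 scale (adjusted p = 0.00551, edgeR, 0.239% of 14651 genes called higher).

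Dll4 had the opposite order. It stood at 17.3, 40.3 and 16.5 CPM in the central class and at 40.6, 104 and 47.2 CPM in the portal class, from 2 to 27 UMIs a sum, lower in the central class in 3 of 3 mice. It did not pass the filter. When barcodes that pass another gate were left out, which left 2 mice with at least 10 barcodes in both classes, Dll4 was tested and lower by 1.62 on the log2 scale (value -1.62, SE 0.413, adjusted p = 0.00997, edgeR, 0.409% of 3908 genes called lower). Dll4 passed the low-count filter there through its portal sums, so its call leans to lower values by the filter alone. Its central level in the mouse of hashtag 2 rested on 4 UMIs of 1 barcode. In that setting Rspo3 (2.86, adjusted p = 4.78e-24) and Wnt2 (1.38, adjusted p = 1.42e-07) were both called higher in the central class, with 0.768% of genes called higher. These are the lowest values of the ranges above, and with 2 mice they say little about the spread between mice. In this setting too, Rspo3 passed the low-count filter through its central sums. In the mouse of hashtag 2 Rspo3 had 13 UMIs in 2 central barcodes and 0 in portal ones. In that of hashtag 3 its 38 portal UMIs came from 3 barcodes. Bmp2 (-0.17, SE 0.315), Hgf (-0.37, SE 0.355) and Bmp6 (0.12, SE 0.391) were not called in the fit over all endothelial barcodes (adjusted p = 0.9999 for each, edgeR), and the standard errors leave differences of about this size undetectable. Angpt2 was too scarce, with 1 to 12 UMIs a sum.

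**Figure D3:**
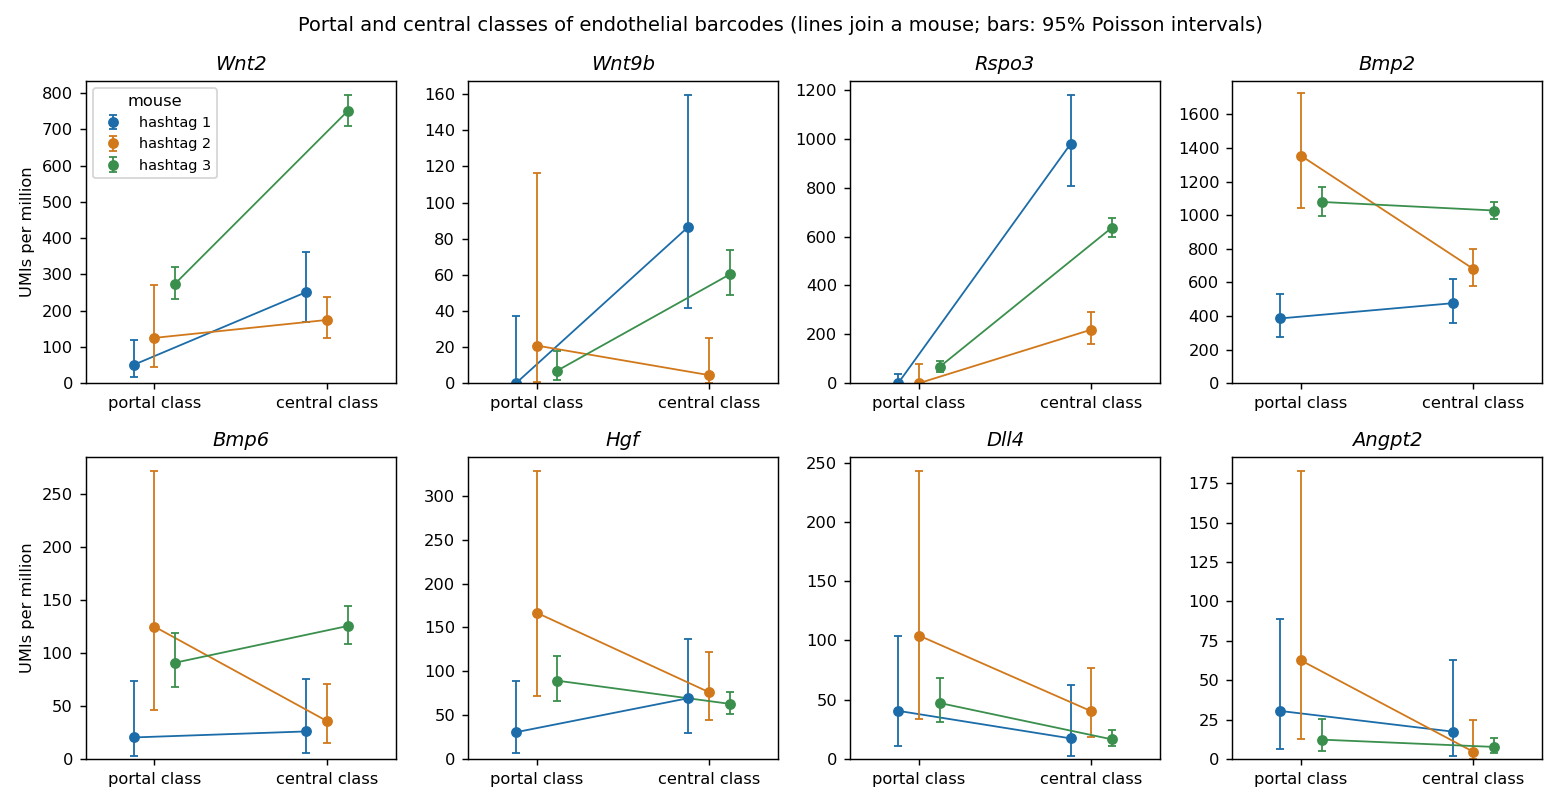
CPM, UMIs per 1000000 (vertical axis, from 0) of each gene in the portal and central classes of endothelial barcodes (horizontal axis), with a line for each mouse and 95% Poisson intervals. Lines rise to the central class for Wnt2 and Rspo3 in all 3 mice and fall for Dll4 in all 3, while those of Bmp2, Bmp6 and Hgf run in both directions.

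Rspo3 was held by a small set of barcodes. Only 121 of 753 endothelial barcodes had a Rspo3 UMI, with a highest value of 83 UMIs in 1 barcode, and the top 10% of barcodes held 95.8% of its UMIs. For Bmp2 and Wnt2, found in 657 and 527 barcodes, the top 10% held 30.7% and 34.1%. The Rspo3 levels of the mice of hashtags 1 and 2 rested on 4 barcodes each. In the mouse of hashtag 2, leaving out its top barcode lowers Rspo3 from 71.5 to 20.8 CPM, and in that of hashtag 1 from 248 to 143 CPM.

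**Figure D4:**
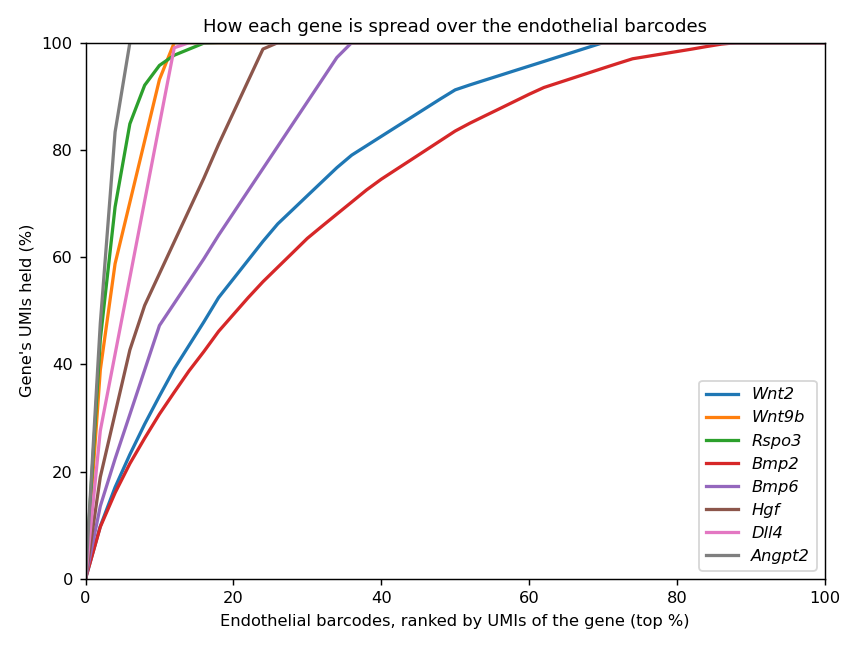
Share of each gene's UMIs in percent (vertical axis) held by the endothelial barcodes richest in that gene, taken cumulatively (horizontal axis, percent of 753 barcodes). The Bmp2 and Wnt2 curves rise slowly, with 30.7% and 34.1% in the top 10%, while Rspo3 reaches 95.8% there, and for a gene as scarce as Angpt2 (42 UMIs) the steep curve follows from the count alone.

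Barcodes with at least 2 of the large-vessel genes Vwf, Cd34, Selp and Ly6c1 carried much of the Rspo3. There were 4, 2 and 24 of them in the 3 mice, with 2700, 1265 and 5295 CPM of Rspo3 against 56.8, 20.9 and 203 CPM in the other endothelial barcodes. These 30 barcodes held 737 of 1322 Rspo3 UMIs. Wnt9b stood at 303, 0 and 294 CPM in the vessel barcodes and at 0, 4.47 and 31.2 CPM in the rest. Bmp2 went the other way in all 3 mice, with 121, 70.3 and 398 CPM against 289, 423 and 1068 CPM, and no Hgf UMI was found in the vessel barcodes, which allows up to 16.95 CPM, against 66.8 CPM in the rest. Both vessel barcodes of the mouse of hashtag 2 passed another gate. Their Rspo3 was 36 UMIs and their Bmp2 2 UMIs, each from 1 barcode. Among barcodes passing no other gate, hashtags 1 and 3 kept 3 and 23 vessel barcodes. Rspo3 stood at 4890 and 5507 CPM in these, against 20.6 and 257 CPM in the rest. Bmp2 stood at 0 and 423 CPM, against 722 and 1236 CPM. Around the endothelial threshold Rspo3 stood at 26.3 CPM in 70 barcodes with 3 gate genes, at 223 CPM in 43 with 4, at 334 CPM in 51 with 5, at 1236 CPM in 67 with 6, at 444 CPM in 145 with 7 and at 120 CPM in 530 with all 8. Its level was thus highest in the set with 6 genes. Wnt2 stood at 1.03, 36.5, 80.8, 252, 357 and 488 CPM in the same sets and Bmp2 at 11.4, 47.5, 137, 262, 607 and 997 CPM, each higher in every further set. With vessel barcodes left out Rspo3 no longer passed the low-count filter in the central and portal comparison, so it had no value there.

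Members found together in a barcode followed the same lines, as a description of sparse counts. Of 84 barcodes with a Wnt9b UMI, 81 also had Wnt2, and 52 (61.9%) also had Rspo3, against 10.3% of barcodes without Wnt9b. Of 121 barcodes with Rspo3, 116 (95.9%) had Wnt2. Dll4 was found in 4.13% of barcodes with Rspo3 and in 13.6% of those without. Bmp2 was in 80.2% of barcodes with Rspo3 and in 88.6% of the others.

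Receptors and modifiers of the same pathways were read from set lists in the comparison of endothelial with hepatocyte barcodes, in which 20.9% of all genes were called higher and 11.3% lower. To pass the low-count filter a gene had to reach 22.9 CPM in 2 or more sums. Of the 20 genes named below as higher in endothelial barcodes, 2 (Lrp6 and Id3) reached this in hepatocyte sums. The others, like the members themselves, passed through other types, mostly through the endothelial sums, so the counts and medians of these lists lean to higher values by the filter alone and support nothing. Of 15 genes for Wnt secretion and reception 5 were tested, 4 rose and 0 fell, with a list median of 1.60. The 4 were Wls, the carrier that Wnt ligands need for secretion (4.09, SE 0.386), the receptor Fzd4 (2.81, SE 0.389) and the coreceptors Lrp5 (1.60) and Lrp6 (1.16). Of 9 Notch receptors and modifiers 5 were tested and 3 rose, namely the glycosyltransferases Mfng (6.66) and Lfng (5.70), which tune the response of Notch to its ligands, and the receptor Notch1 (1.98, SE 0.352). Mfng stood at 8.78, 5.72 and 23.5 CPM in endothelial sums and at no more than 0.112 CPM in hepatocyte sums. The list median was 1.98. The 3 genes of the Tie list, the receptors Tek (8.85) and Tie1 (8.63) and the phosphatase Ptprb, were higher, but Ptprb is a gate gene and is no result. DESeq2 did not call Tek (adjusted p = 0.168) or Fzd4 (adjusted p = 0.349).

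Of 16 BMP receptors and partners 7 were tested, 4 rose and 1 fell, with a list median of 2.04. Eng, a coreceptor for BMP ligands on endothelium, stood at 450, 479 and 1506 CPM in endothelial and at 0.335, 0.592 and 9.59 CPM in hepatocyte sums (8.96, SE 0.514, adjusted p = 3.12e-11, edgeR). The type I receptor Acvrl1 (5.56) and the type II receptor Bmpr2 (2.60) rose too, while Tfr2, an iron sensor of hepatocytes, fell by 2.09 on the log2 scale. Of 9 BMP targets 8 were tested, and the inhibitory Smad6 (4.41), Smad7 (2.50) and Id3 (1.35) rose while Hamp, the gene of hepcidin, fell by 1.19 on the log2 scale. The Hamp call was lost in 3 of 13 alternatives, with adjusted p up to 0.125 (edgeR without the mouse of hashtag 2). The median of that list was 0.15.

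Of 6 genes around the HGF receptor 3 were tested, 0 rose and 2 fell, the proteases that activate HGF, Hpn (fell by 1.82 on the log2 scale) and Hgfac (fell by 1.30), for a list median of -1.30. The Hgfac call was lost in 4 of 13 alternatives (adjusted p up to 0.149, edgeR with the gate at 3 genes). Of 12 Wnt targets 4 were tested and 1 fell (Cyp1a2, by 2.17 on the log2 scale, list median -0.34). The Cyp1a2 call was lost without the mouse of hashtag 2 (adjusted p = 0.0778) and with the gate at 3 genes (adjusted p = 0.833, edgeR). Of 5 Notch targets only Hes1 was tested and it did not pass (0.03). Of 29 other endothelial signals 7 were tested, 4 rose and 1 fell, with a list median of 1.65. Nos3, the endothelial nitric oxide synthase, led with 4.12 (SE 0.502), followed by Tgfb1 (2.07), Bmp4 (1.85) and Kitl (1.30). The Kitl call was lost in 5 of 12 alternatives, among them each fit with a mouse left out (adjusted p up to 0.114), and the Bmp4 call in 3 of 9 (adjusted p up to 0.152, edgeR without the mouse of hashtag 1). With barcodes that pass another gate left out, the differences of the hepatocyte genes were wider, by values of -2.09 for Hamp, -2.81 for Hpn and -2.57 for Hgfac on the log2 scale (adjusted p = 2.51e-05, 1.13e-06 and 4.21e-05, edgeR).

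Genes with the pattern most like each member were ranked by Pearson's correlation of log2(CPM + 1) over 18 sums of 7 types, among 12497 genes, as a description in which all points share the same mice and libraries. All members but Angpt2 were low or absent outside the endothelial sums, so any gene confined to those sums scores high. A high value is therefore no sign of shared control. Nearest to Wnt2 were Gm10600 (0.998), Pcdh12 (0.995) and Ushbp1 (0.994), and nearest to Bmp2 were the basement membrane collagens Col4a2 (0.988) and Col4a1 (0.987) and Plet1os (0.985). Among the nearest to Wnt9b were Pcdhb14 (0.999) and Kif26a (0.997). Bmp6 was nearest to Syn3 (0.995), Rapgef3 (0.991) and Nbea (0.991), and Dll4 to Hmcn1 (0.997), Gpm6a (0.997) and Tal1 (0.997). Rspo3 had lower values, with Mapk12 (0.952), Tspan18 (0.944) and Gpr182 (0.943), as did Hgf, with Npl (0.970), Sox18 (0.940) and Capn5 (0.929). Angpt2 was nearest to Sat2 (0.964), Npdc1 (0.963) and Abcb11 (0.959), the last a hepatocyte gate gene that pumps bile salts.

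Hepatocyte barcodes with a UMI of mVenus, which rides on the transposon, were compared with those without, a comparison added after Angpt2 UMIs had been seen in hepatocyte barcodes. Angpt2 stood at 15.1, 18.95 and 17.95 CPM with mVenus and at 8.48, 8.94 and 7.995 CPM without it in the mice of hashtags 1, 2 and 3. It was higher with mVenus in 3 of 3 mice, by 0.99 on the log2 scale (SE 0.171, adjusted p = 2.27e-05, edgeR), where 10.5% of 9811 genes were called higher. The values of the mouse of hashtag 3 rested on 3 and 2 UMIs. Bmp2 stood at 8.50, 6.48 and 0 CPM with mVenus and at 2.19, 1.72 and 7.995 CPM without, a difference of 1.82 (SE 0.292, adjusted p = 7.90e-06, edgeR). The mouse of hashtag 3 went the other way for Bmp2, with 0 against 2 UMIs in 12 and 30 barcodes. Without the mouse of hashtag 2 neither gene passed (Angpt2 0.86, adjusted p = 0.463, and Bmp2 1.61, adjusted p = 0.242).

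Depth moved with this split. The median was 59427 UMIs with mVenus against 18130 without in the mouse of hashtag 1, and 54766 against 39170 in that of hashtag 2. Among hepatocyte barcodes of at least 10000 UMIs the differences were 1.00 for Angpt2 (adjusted p = 4.16e-10) and 1.87 for Bmp2 (adjusted p = 2.28e-13), where 14.8% of 11564 genes were called higher (edgeR). A difference in depth remained in this set, with medians of 59427 against 31606 UMIs in the mouse of hashtag 1 and 55282 against 41344 in that of hashtag 2, and its part in the result was not tested. The set rests on these 2 mice, since the mouse of hashtag 3 had 3 and 5 such barcodes. Bmp6 (1.02, adjusted p = 0.0431, edgeR) and Rspo3 (2.62, adjusted p = 0.000164, edgeR) were called higher there too. Both genes would not have passed the low-count filter on the sums without mVenus alone. Their calls thus lean to higher values by the filter alone. For Rspo3, 17 of the 29 UMIs with mVenus in the mouse of hashtag 2 came from 1 barcode, so its value is uncertain. Bmp6 stood at 2.08 and 1.89 CPM with mVenus against 0.547 and 1.00 CPM without in the mice of hashtags 1 and 2 over all hepatocyte barcodes. Barcodes of a mouse were summed before each test, so that the mice and not the barcodes were the replicates. With 2 mice in the set of at least 10000 UMIs, its p-values say little about the spread between mice.

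**Figure D5:**
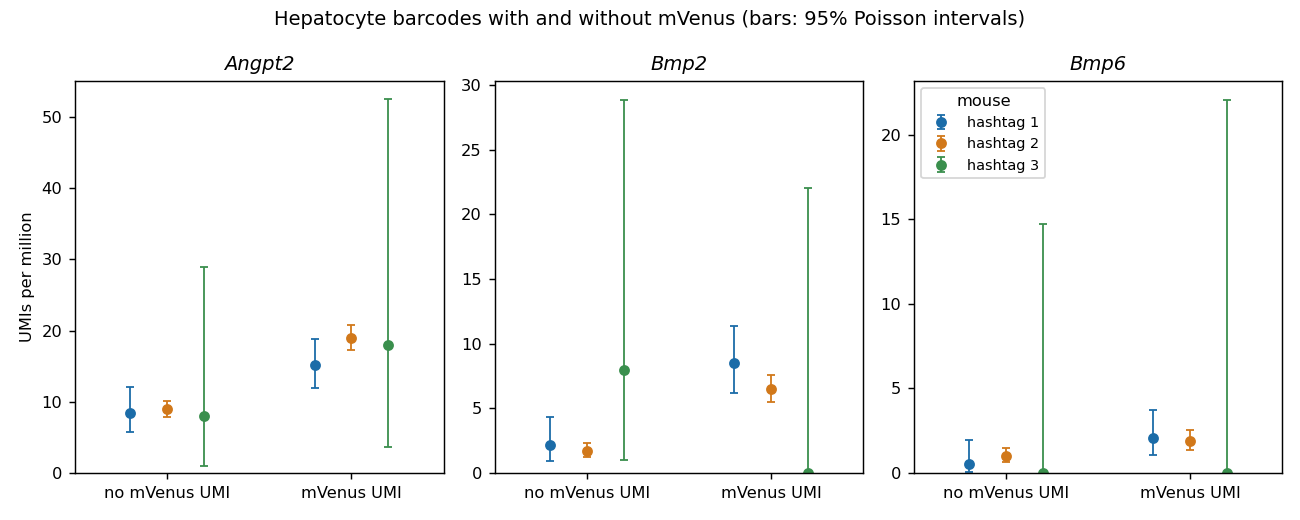
CPM, UMIs per 1000000 (vertical axis, from 0) of Angpt2, Bmp2 and Bmp6 in hepatocyte barcodes without and with an mVenus UMI (horizontal axis) for each mouse, with 95% Poisson intervals. Angpt2 lies at 7.995 to 8.94 without and at 15.1 to 18.95 with mVenus, while the hashtag 3 points of all 3 genes have wide bars from 0 to 3 UMIs.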

How the data were processed

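Livers of 3 mice were pooled after hashtag labelling and sequenced as a gene expression and a hashtag library. The authors aligned reads to mm10 with Cell Ranger (version 2.1.1 in the submitters' processing notes; the matrix itself names another) and deposited UMI counts per gene and barcode, with no normalization. The hashtag table, also deposited as raw counts, came from CITE-seq-Count, which took exact tag matches only. The 31053 genes held 142080194 UMIs in 13151 barcodes. Intervals and floors cover counting error only.

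Barcodes with at least 500 genes, 1000 UMIs and under 20% mitochondrial UMIs were kept. Mice were assigned with HTODemux (Seurat 5.3.0, quantile 0.99), which removed doublets of different mice. Doublets within a mouse were not called, and the alternative without barcodes that pass another gate stands in for this. Each type needed 4 of 8 gate genes, and comparison types passed no other gate. Counts were summed per mouse and type (at least 10 barcodes) and tested with edgeR's two-sided quasi-likelihood F-test (version 4.0.16, TMM, filterByExpr, mouse as a block since types come from the same animals), with Benjamini-Hochberg adjustment over all genes and a threshold of 0.05. The test was also run on simulated counts with a fixed spread and no difference between mice. That run does not cover sparse genes or mice that differ. The rows of Nras, which takes up reads of the construct, and mVenus were left out of sizes and tests. Coordinates are of GRCm38 (GENCODE M21).

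The members and lists were chosen with earlier results of these data known. The text names the 8 members, per list at most 4 genes with the largest called difference from hepatocytes, and per member the 3 genes most like it, 1 of which is not reported here. Hjv was not matched by symbol. The comparison by mVenus was added after seeing the data. Alternatives were library-size scaling, DESeq2 (version 1.42.0), no low-count filter, no mouse block, each mouse left out, other gates, barcode filters and a hashtag rule of 10 UMIs and 80%.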

Additional observations from a re-analysis of the deposited data

Results flagged for a closer look

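In the deposited pairing, 2 members moved one way between the central and portal classes in the D38A mouse and the other way in both G12V mice. Bmp2 was higher in the central class in the mouse of hashtag 1, by 0.30 on the log2(CPM + 1) scale, and lower in the mice of hashtags 2 and 3. Central against portal, it stood at 476 against 386 CPM in hashtag 1 and at 1028 against 1079 CPM in hashtag 3. The Poisson intervals overlapped in these 2 mice, but not in hashtag 2 (680 against 1354 CPM). Hgf was higher in the central class in the mouse of hashtag 1 by 1.16 on the log2(CPM + 1) scale, from 8 against 3 UMIs, and lower in the other mice. The difference between the groups was not tested, since 1 mouse stands for the control, and in the pairing of the methods neither gene met the condition. How many of all genes met it in the deposited pairing was not counted.

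The 46 endothelial barcodes without a hashtag call entered no comparison, yet they held the members above the floor of 3 counts. Wnt2 stood there at 378 CPM, Rspo3 at 393 CPM, Bmp2 at 479.8 CPM, Wnt9b at 56.2 CPM, Bmp6 at 30.6 CPM and Hgf at 20.4 CPM. These levels lay within the range of the 3 mice for Wnt2, Rspo3, Bmp2 and Bmp6, above it for Wnt9b (11 UMIs) and below it for Hgf (4 UMIs). Dll4 had 1 UMI and Angpt2 had 0.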

How the results depend on the processing

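Across 444 values of members against other types under the alternatives, 444 kept the sign they had in the fit described. Wnt9b and Angpt2 are not among these values, since they did not pass the low-count filter. The members counted passed that filter mostly through endothelial sums, so their sign was unlikely to turn and the count supports nothing. Counts of called genes between types stayed within 1.5 times under other scaling, DESeq2, gates and filters. Leaving out each mouse in turn gave 1513 to 2145 calls in place of 2613 against hepatocytes, 279 to 1148 in place of 1059 against macrophages, 1241 to 3630 in place of 3313 against conventional dendritic, 1067 to 3708 in place of 3353 against mature dendritic, 1112 to 1575 in place of 1976 against T and NK and 744 to 1043 in place of 1453 against B barcodes, with the fewest calls without the mouse of hashtag 2 in each but T and NK. Between the central and portal classes 5 genes were called, against 0 with library-size scaling, 3 with DESeq2, 38 without the low-count filter, 0 without the mouse block, 8 with the gate at 3 genes, 46 without barcodes passing another gate and 7 to 28 with a mouse left out. In the fits that called none, the counts at an unadjusted p under 0.05 were 72 with library-size scaling and 68 without the block. Between these classes Bmp2 ran from -0.34 to 0.032 with a mouse left out and was 0.00136 with the gate at 3 genes, against -0.17, and Bmp6 ran from -0.022 to 0.44 with a mouse left out and was -0.18 with DESeq2, against 0.12, none past the threshold. By mVenus 2316 genes were called, against 966 with DESeq2, 302 without the mouse block and 372 to 2986 with a mouse left out. Without the mouse block the Bmp6 call against B barcodes (adjusted p = 0.0776) and the Rspo3 call by class were lost, and no other member's call changed. The count of members at least 2-fold apart in both G12V mice was 0, against 3 in the pairing of the methods, 2 with the gate at 5 genes, 2 without barcodes passing another gate and 2 with the other hashtag rule. No such count was made over all genes. With 1 G12V mouse left out the count in the lone G12V mouse was 2 to 3, which is not a count in both. Among types with at least 50 barcodes, which leaves out macrophage, stellate and the other rare barcodes, members with the highest mean over mice in endothelial barcodes numbered 7, or 8 under 3 of the 6 alternatives. How many of all genes have their highest mean there was not counted. The cause of these changes was not tested, apart from fewer samples where a mouse was left out. Precision is limited by the endothelial depth of the mice of hashtags 1 and 2, and by the small macrophage, T and NK and B sums.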
